A study of Mus musculus with 6 samples.

Results

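Amino acids cross the plasma membrane of mammalian cells through carriers of several solute carrier (SLC) families, and 10 genes of such carriers are described here. They were listed as plasma membrane amino acid transporters: Slc3a2, Slc7a5, Slc7a6, Slc43a2, Slc7a1, Slc1a4, Slc1a5, Slc38a1, Slc38a2 and Slc6a9. The list was drawn up with earlier results of these data known. All 10 are among the 55401 genes of the deposited table, and all 10 passed the filter on low counts that left 15272 genes to test. The study compared mouse cells of wild-type genotype exposed to neutrophil extracellular traps (NETs, webs of DNA and granule proteins cast out by neutrophils) with cells left untreated, in 3 NETs-treated and 3 control RNA-seq libraries. The labels call the cells BMDM, bone marrow-derived macrophages, whereas the sample titles carry BV2, the name of an immortalised mouse microglial line, and the name is not resolved here. The labels give neither the dose of NETs, nor the length of exposure, nor the age of donor animals. They do not say either whether replicates are independent cultures, so the p-values measure only how far these libraries spread, which may be technical.

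Carriers of this kind differ in what drives them. Exchangers such as LAT1, the product of Slc7a5, swap an amino acid inside the cell for another outside, and need the glycoprotein CD98, the product of Slc3a2, to reach the cell surface. Sodium-coupled carriers of the SLC1, SLC38 and SLC6 families use the sodium gradient to concentrate small neutral amino acids, above all glutamine, alanine, serine and glycine. Many of these genes are known targets of ATF4, the transcription factor that answers amino acid shortage and endoplasmic reticulum stress, and carriers that bring in leucine and arginine feed the mTORC1 kinase. In macrophages, arginine uptake supplies nitric oxide synthase and arginase, and glutamine uptake supplies central metabolism.

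Total counts per library ran from 39994613 to 44274445. Libraries of a group differed by more than sampling noise (chi-square per gene between 9.83 and 78.1), and the largest of these values was between NETs-treated replicates 1 and 3. The median standard deviation (SD) of log2 CPM (read counts scaled to the same library total) over genes was 0.12 among control and 0.20 among NETs-treated libraries. The 11 macrophage and microglia markers, all tested, summed to between 4954 and 5126 CPM in control and between 4879 and 5071 CPM in NETs-treated libraries. Of these 11, 8 were called lower and 2 higher, against 27.2% and 25.5% of all tested genes. Csf1r, the receptor for macrophage colony-stimulating factor, had between 169 and 187 CPM in control and between 85.7 and 88.8 CPM in NETs-treated libraries. Aif1 stayed below 1 CPM in every library, and the microglial markers P2ry12 and Cx3cr1 reached at most 1.10 and 2.51 CPM. Of 10 neutrophil markers, 5 had no read in any library, and the list summed to between 5.37 and 7.31 CPM in control and between 10.4 and 16.6 CPM in NETs-treated libraries, of which S100a8 made up between 8.79 and 14.1 CPM. All 7 lymphocyte markers lay below 1 CPM, and the fibroblast and endothelial list summed to at most 1.23 CPM. The part of these markers in the results below was not tested.

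RefSeq promoter windows (300 bases, from 250 before to 50 after a transcription start, GRCm38.p6) were at hand for 7 of the 10 genes, with 12 windows in all: Slc6a9, Slc7a1, Slc7a6, Slc1a4, Slc43a2, Slc38a2 and Slc3a2. They were searched on both strands for the core of the C/EBP-ATF response element to which ATF4 binds, TGATGNAA, for the Myc E-box CACGTG, for TATAAA and, chosen after the sequences had been read, for CCAAT. Printed are 150 bases, from 146 before to 4 after the start, of the pair of genes whose transcripts fell most (Slc43a2 and Slc1a4), of the most abundant one (Slc38a2) and of the one that rose (Slc7a6). Capitals mark matches to any of these motifs, written on the gene's own strand from 5′ to 3′.

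Slc43a2, chr11:75531548-75531697, plus strand: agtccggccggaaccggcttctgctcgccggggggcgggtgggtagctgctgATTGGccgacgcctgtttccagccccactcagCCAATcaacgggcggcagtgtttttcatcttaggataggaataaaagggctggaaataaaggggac
Slc1a4, chr11:20332710-20332859, minus strand: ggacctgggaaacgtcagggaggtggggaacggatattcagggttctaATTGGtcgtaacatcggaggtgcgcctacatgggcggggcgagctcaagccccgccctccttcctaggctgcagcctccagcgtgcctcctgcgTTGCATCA
Slc38a2, chr15:96699725-96699874, minus strand: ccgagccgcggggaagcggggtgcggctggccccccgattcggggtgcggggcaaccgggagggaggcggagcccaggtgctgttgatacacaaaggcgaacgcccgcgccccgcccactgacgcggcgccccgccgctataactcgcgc
Slc7a6, chr8:106168708-106168857, plus strand: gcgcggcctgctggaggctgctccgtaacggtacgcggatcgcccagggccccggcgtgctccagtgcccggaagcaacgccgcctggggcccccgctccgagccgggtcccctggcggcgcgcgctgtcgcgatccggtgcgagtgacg

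The ATF4 core matched once, across the start of Slc1a4 on the reverse strand, and in none of the other 11 windows; 3.97% of all 32851 RefSeq windows hold a match. CACGTG was in none of the 12 windows and is in 7.15% of all windows. TATAAA was in 1 window of Slc7a1, against 13.6% of all windows. CCAAT or its reverse was in both windows of Slc43a2, the window of Slc1a4 and 1 window of Slc7a1, against 37.4% of all windows. A match describes these letters only, and elements outside the windows were not searched. Slc7a5, Slc1a5 and Slc38a1 had no window, so their promoters were not searched for any of these motifs.

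Of the 10 transcripts, 7 fell in NETs-treated cells, 1 rose and 2 did not pass the test (quasi-likelihood test of edgeR, p adjusted by Benjamini-Hochberg over all tested genes and below 0.05). Over all tested genes, 52.7% were called, 27.2% lower and 25.5% higher. The fall was 5.09-fold for the uniporter gene Slc43a2 and 4.57-fold for the serine and alanine carrier gene Slc1a4, and it was at least 2-fold for 4 genes, Slc6a9 and Slc1a5 being the others. Slc7a6, a light chain of CD98, was the gene that rose. The median log2 fold change of the 10 was -0.85, against -0.02 over all tested genes. Since the 10 were chosen with earlier results known, these comparisons with all genes only describe them. Values of the groups did not overlap for 9 of the 10 genes, as for 62.4% of all tested genes. In bulk RNA, fewer cells with a transcript and less of it in each cell cannot be told apart.

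**Figure D1:**
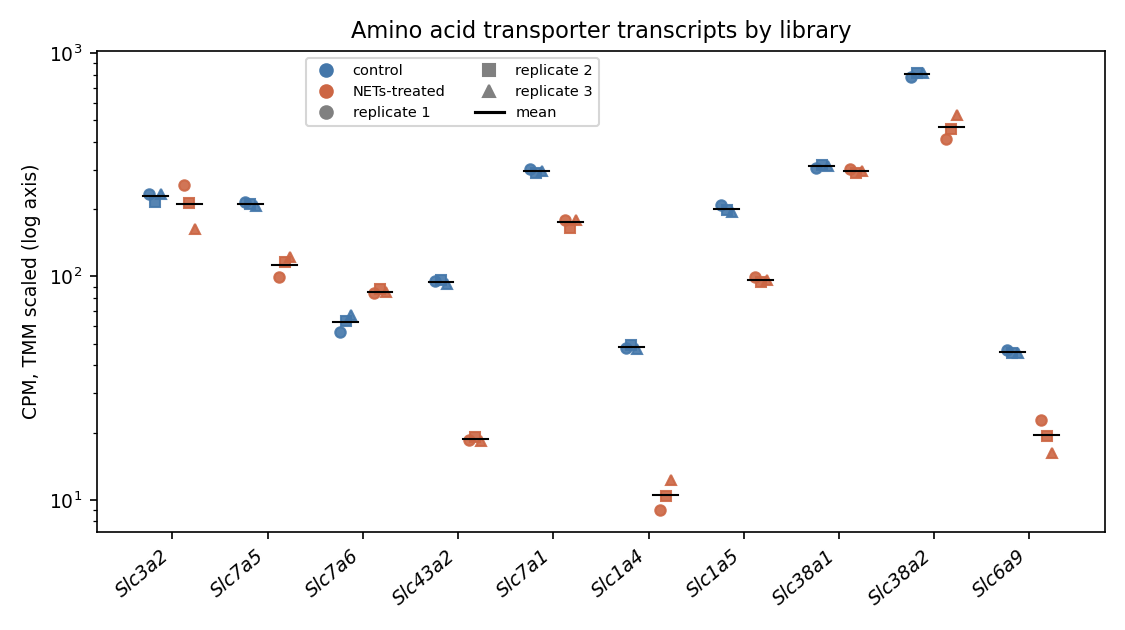
CPM scaled by TMM (log axis) of the 10 transporter transcripts in each library; colours give the group, marker shapes the replicate and black lines the group mean of 3 libraries. Only Slc3a2 has overlapping groups, and its NETs-treated libraries run from 163 to 256 CPM.

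Summed over the 10 genes, the level per transcript length was 1102, 1094 and 1103 TPM in control libraries (TPM, counts divided by the summed exon length of the gene and scaled to the same total in each library). It was 657, 633 and 638 TPM in NETs-treated libraries, below every control library. TPM, here and below, do not carry the TMM scaling. With that scaling, the sum was 2297, 2297 and 2314 CPM in control and 1483, 1473 and 1516 CPM in NETs-treated libraries. The 10 genes took between 0.235% and 0.237% of all counts in control and between 0.143% and 0.149% in NETs-treated libraries.

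Slc3a2 encodes the heavy chain of CD98, which carries its light chains to the membrane and transports nothing itself. Its transcript had 235, 216 and 234 CPM in control and 256, 212 and 163 CPM in NETs-treated libraries. The NETs-treated values lay above, within and below the control range. The log2 fold change was -0.12 (95% confidence interval -0.44 to 0.21), and the adjusted p was 0.525 in edgeR's quasi-likelihood test. Replicates decided the sign: the log2 fold change was -0.26 without NETs-treated replicate 1 (adjusted p = 0.0659) and 0.05 without NETs-treated replicate 3 (adjusted p = 0.689). The gene lies at chr19:8706882-8723369 on the minus strand (ENSMUSG00000010095.13, GRCm38, as are all gene spans here).

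Slc7a5 encodes LAT1, the light chain that exchanges intracellular glutamine for leucine and other large neutral amino acids. Its transcript had 216, 211 and 206 CPM in control libraries and 99.7, 116 and 123 CPM in NETs-treated libraries. Every NETs-treated value lay well below the control values. Its log2 fold change was -0.91 ± 0.09 (standard error, SE; adjusted p = 4.76e-05 in edgeR with Benjamini-Hochberg adjustment). Slc7a5 (ENSMUSG00000040010.10) spans chr8:121881150-121907694 on the minus strand.

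Slc7a6 encodes y+LAT2, a light chain that releases cationic amino acids such as arginine in exchange for neutral ones with sodium. It had 56.6, 63.2 and 67.2 CPM in control and 84.1, 87.8 and 84.8 CPM in NETs-treated libraries. The lowest NETs-treated value exceeded the highest control value. The rise was small, a log2 fold change of 0.46 ± 0.08 (SE; edgeR adjusted p = 0.00166). Slc7a6 (ENSMUSG00000031904.5) lies on the same chromosome as Slc7a5, at chr8:106168857-106198706 on the plus strand.

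Light chain and heavy chain transcripts were also set against each other within each library. Per length, the ratio of Slc7a5 to Slc3a2 was 0.876, 0.931 and 0.838 in control and 0.370, 0.518 and 0.714 in NETs-treated libraries. These groups did not overlap (difference of mean log2 ratios -0.77, two-sided exact permutation test, p = 0.1, the smallest that 3 against 3 libraries allow). For Slc7a6 to Slc3a2 the ratio was 0.186, 0.226 and 0.222 in control and 0.254, 0.319 and 0.401 in NETs-treated libraries. These did not overlap either (difference 0.60, exact permutation p = 0.1). NETs-treated replicate 3 had the highest and replicate 1 the lowest of both ratios within its group. Over replicates 1, 2 and 3 of that group, Slc3a2 had 207, 170 and 133 TPM and Slc7a5 had 76.8, 87.8 and 95.2 TPM, so heavy and light chain differed in opposite directions.

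CD98 has other light chains, and their transcripts were set beside the pair above after their values had been seen. They are Slc7a8 (LAT2, a relative of LAT1), Slc7a11 (the cystine-glutamate exchanger), Slc7a7 and Slc7a10. Slc7a5 made up 55.7% ± 1.75 of the summed light chain TPM in control and 24.4% ± 1.66 in NETs-treated libraries (SD, n = 3 each). Slc7a11 went from 16.1% ± 0.645 to 37.5% ± 3.31 and Slc7a8 from 14.7% ± 0.162 to 22.9% ± 4.51. The share of Slc7a6 was 13.3% ± 1.04 in control and 15.1% ± 0.569 in NETs-treated libraries; by longest transcript it was 13.8% ± 1.03 and 14.3% ± 0.608, and the libraries overlapped. Slc7a7 gave under 1 TPM in every library, and Slc7a10 had no read in any. The summed light chain level was between 319 and 325 TPM in control and between 341 and 370 TPM in NETs-treated libraries. These shares are descriptions and carry no test.

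**Figure D2:**
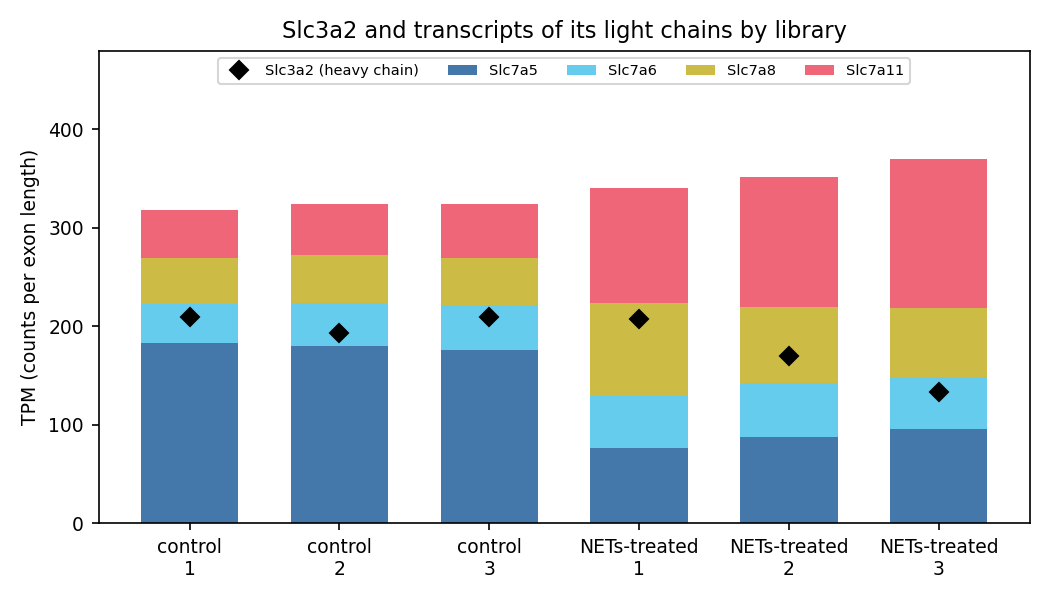
Stacked bars give the TPM of 4 light chain transcripts of CD98 in each library, and diamonds the TPM of the heavy chain Slc3a2. Slc7a5 falls from between 175 and 183 TPM in control to between 76.8 and 95.2 TPM, and Slc7a11 reaches between 116 and 151 TPM in NETs-treated libraries.

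Slc43a2 encodes LAT4, a uniporter that lets large neutral amino acids such as leucine and phenylalanine move down their gradient without a heavy chain. It had 95.6, 96.1 and 92.8 CPM in control and 18.5, 19.0 and 18.4 CPM in NETs-treated libraries. The groups were far apart and tight. Its log2 fold change of -2.35 ± 0.07 (SE; edgeR adjusted p = 1.76e-07) was the most negative of the 10, and 3.01% of tested genes had a lower one. Slc43a2 (ENSMUSG00000038178.16) spans chr11:75531694-75577575 on the plus strand. An antisense gene, Gm45606, shares 922 exon bases with it, and had 353, 356 and 343 counts in control and 160, 74 and 50 in NETs-treated libraries. No source used here says whether the counting used strand. The Slc43a2 count itself was 4113, 4144 and 4216 in control and 788, 763 and 721 in NETs-treated libraries.

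Slc7a1 encodes CAT-1, the main uniporter for arginine, lysine and ornithine in most cells. Its transcript had 303, 291 and 297 CPM in control and 179, 164 and 180 CPM in NETs-treated libraries. The groups were separated by more than 100 CPM. Its log2 fold change was -0.77 ± 0.06 (SE; edgeR adjusted p = 2.43e-05). Slc7a1 (ENSMUSG00000041313.14) spans chr5:148327410-148399904 on the minus strand. Its relatives moved the other way: Slc7a2 (CAT-2, the carrier tied to arginine use in activated macrophages) rose from 62.1 ± 1.09 to 75.6 ± 2.52 CPM, and Slc7a3 (CAT-3) from 0.418 ± 0.084 to 4.41 ± 0.676 CPM (SD, n = 3).

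Slc1a4 encodes ASCT1, a sodium-dependent exchanger of serine, alanine, cysteine and threonine. It had 47.6, 49.4 and 47.4 CPM in control and 8.98, 10.4 and 12.2 CPM in NETs-treated libraries. No NETs-treated value came near the control range. The log2 fold change was -2.19 ± 0.12 (SE; edgeR adjusted p = 2.81e-06). Slc1a4 (ENSMUSG00000020142.12) spans chr11:20302180-20332713 on the minus strand, and its start is the one with the ATF4 core shown above.

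Slc1a5 encodes ASCT2, the related exchanger known for glutamine uptake in proliferating cells. It had 209, 198 and 194 CPM in control and 99.8, 94.1 and 96.5 CPM in NETs-treated libraries. Replicates were close in both groups. Its log2 fold change was -1.05 ± 0.06 (SE; edgeR adjusted p = 4.84e-06). Slc1a5 (ENSMUSG00000001918.17) spans chr7:16781340-16798274 on the plus strand. The pair of SLC1 carriers fell by unequal amounts, with confidence intervals of the log2 fold change from -2.47 to -1.92 for Slc1a4 and from -1.20 to -0.90 for Slc1a5. The difference between them was not tested.

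Slc38a2 encodes SNAT2, the sodium-coupled carrier of small neutral amino acids whose gene is switched on by amino acid shortage. It had 780, 813 and 817 CPM in control and 411, 459 and 526 CPM in NETs-treated libraries. All NETs-treated values lay below control, with NETs-treated replicate 3 the closest. The log2 fold change was -0.79 ± 0.09 (SE; edgeR adjusted p = 0.000132). Slc38a2 (ENSMUSG00000022462.7) spans chr15:96687392-96699730 on the minus strand.

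Slc38a1 encodes SNAT1, a carrier of glutamine and other small neutral amino acids, and is the neighbour of Slc38a2 on the same strand, 44478 bases away at chr15:96571418-96642913 (ENSMUSG00000023169.15). It had 307, 314 and 311 CPM in control and 303, 291 and 296 CPM in NETs-treated libraries. The groups did not overlap, but by only a few CPM. The log2 fold change was -0.07 (95% confidence interval -0.19 to 0.06; edgeR adjusted p = 0.349), so a change as large as that of Slc38a2 lies outside its interval. The ratio of Slc1a5 to Slc38a2 per length was 0.529 ± 0.0338 in control and 0.446 ± 0.0640 in NETs-treated libraries (SD, n = 3), which overlapped (exact permutation p = 0.2).

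Slc6a9 encodes GlyT1, the sodium- and chloride-coupled glycine carrier. It had 47.0, 45.5 and 45.6 CPM in control and 22.7, 19.4 and 16.2 CPM in NETs-treated libraries. The groups lay far apart, although NETs-treated libraries differed among themselves more than controls. The log2 fold change was -1.25 ± 0.12 (SE; edgeR adjusted p = 6.25e-05). Slc6a9 (ENSMUSG00000028542.17) spans chr4:117834506-117875198 on the plus strand. Ccdc24 on the opposite strand shares 1429 exon bases with it; its counts, 110, 0 and 8 in control and 167, 109 and 51 in NETs-treated libraries, went the other way and were uneven among replicates. Gm17114, also on the opposite strand, shares 511 exon bases and had 0, 11 and 15 counts in control and none in NETs-treated libraries. Reads of these overlaps may therefore not be parted. The Slc6a9 count itself was 2023, 1963 and 2070 in control and 965, 777 and 634 in NETs-treated libraries.

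**Figure D3:**
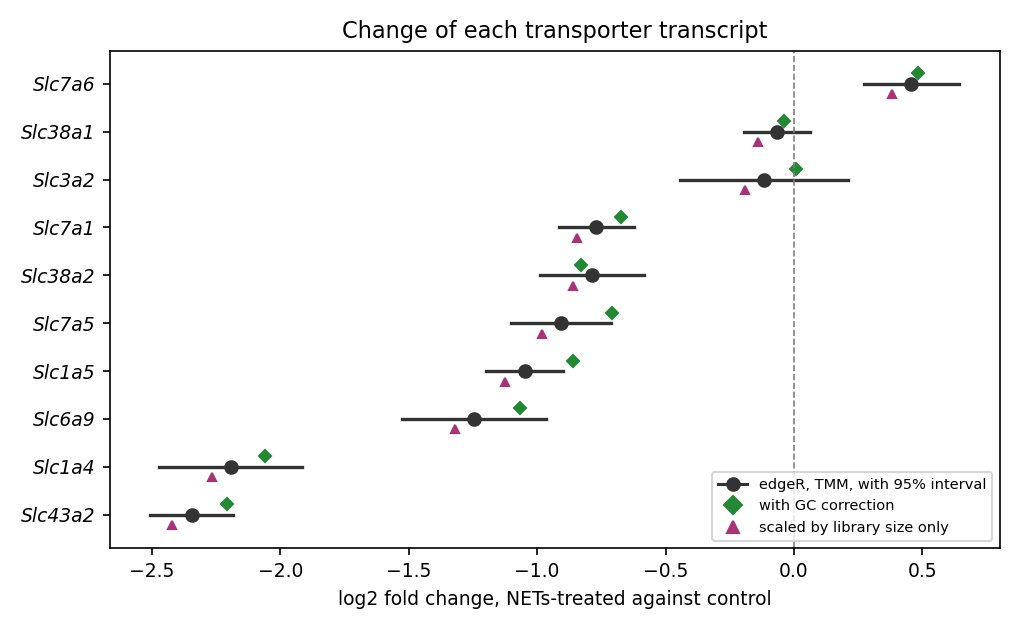
Log2 fold change of each transporter transcript with its 95% confidence interval (dots and bars), with a correction for transcript GC content (diamonds) and with scaling by library size only (triangles). The 7 genes that fell and Slc7a6 keep their direction under each, while the points of Slc3a2 lie on both sides of 0.

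Per transcript length, Slc38a2 had the highest control level (287 ± 7.98 TPM), followed by Slc3a2 (204 ± 9.29), Slc7a5 (180 ± 3.97), Slc1a5 (151 ± 5.47), Slc7a1 (81.3 ± 1.43), Slc38a1 (56.9 ± 0.823), Slc7a6 (43.0 ± 3.77), Slc1a4 (38.7 ± 0.996), Slc43a2 (29.8 ± 0.584) and Slc6a9 (28.2 ± 0.450; TPM, SD, n = 3). Among neighbours in this order, values overlapped only for Slc7a6 and Slc1a4. In NETs-treated cells the levels ran from Slc3a2 (170 ± 36.9 TPM) and Slc38a2 (150 ± 19.7), whose values overlapped, down to Slc6a9 (10.8 ± 1.77), Slc1a4 (7.65 ± 1.23) and Slc43a2 (5.30 ± 0.0363). Slc7a6 stood in the seventh place in control and the fifth in NETs-treated cells, and Slc7a1 in the fifth and the seventh. These moves rest on the summed exon length: with the longest transcript, Slc7a1 was in the sixth and Slc7a6 in the seventh place in both groups, and Slc38a2 led in both (168 ± 22.5 TPM in NETs-treated cells, beside 165 ± 35.3 TPM for Slc3a2). Slc38a1, whose exons sum to 17236 bases against 7266 in its longest transcript, had 103 ± 1.59 TPM in control when the longest transcript was used. With that length it stood in the third place in NETs-treated cells, at 90.0 ± 2.34 TPM.

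GC content of the longest transcript ran from 44.7% for Slc38a2 to 57.0% for Slc6a9. Across the 10 genes it had a Spearman rho of -0.61 and a Pearson r of -0.42 with the log2 fold change; the points share their 6 libraries, and this is a description only. With a correction for GC content, the same 7 genes were called lower and Slc7a6 higher, with log2 fold changes from -2.21 for Slc43a2 to -0.68 for Slc7a1 among those called lower.

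The list of other plasma membrane amino acid transporters moved in both directions. Of 30 listed, 10 could be tested, of which 4 rose and 3 fell, beside 25.5% called higher and 27.2% lower over all tested genes. The median of the tested genes of this list was 0.08 on the log2 scale. It ran over the alternative settings from -0.37, without the filter on low counts (18 genes), to 0.32. Slc7a11 rose from 229 ± 10.9 to 649 ± 81.2 CPM, and Slc7a8 from 75.5 ± 1.30 to 142 ± 22.4 CPM (SD, n = 3). Slc16a10, a carrier of aromatic amino acids, fell from 70.9 ± 3.58 to 33.0 ± 0.214 CPM. Slc38a4, a relative of Slc38a1 and Slc38a2, had 61, 69 and 70 counts in control and no count in any NETs-treated library, a level at least 61.7-fold lower when 3 counts in the whole group are taken as the floor, for counting error only. Slc7a8, and Slc7a2 above, were named for their kinship with members after their values were seen.

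Carriers of the lysosome, which return amino acids from digested protein to the cytosol, mostly went the other way from the 10 genes. Of 9 tested, 5 rose (7 with the GC correction) and 1 fell, and the median log2 fold change was 0.56. For these and the mitochondrial carriers below, the shares over all tested genes were 25.5% called higher and 27.2% lower. Slc15a3, a carrier of histidine and small peptides, had a log2 fold change of 1.26 ± 0.06 (SE). Slc38a9, which reports lysosomal arginine to mTORC1, rose from 32.5 ± 3.74 to 70.0 ± 7.38 CPM, and Slc38a7, a glutamine carrier, had a log2 fold change of 0.75 ± 0.07. Mfsd12, which takes cysteine into lysosomes, fell from 169 ± 13.7 to 79.8 ± 5.52 CPM. Of 11 tested mitochondrial carriers, 2 rose and 3 fell (median -0.24, but -0.16 without control replicate 1 and -0.14 without either control replicate 2 or NETs-treated replicate 2). Slc25a13, an aspartate-glutamate carrier, had a log2 fold change of -0.64 ± 0.07, and Sfxn3, a serine carrier, of -0.40 ± 0.07. In the other direction, Slc25a29, a carrier of basic amino acids, had 1.18 ± 0.21 and Slc25a44, a carrier of branched-chain amino acids, 0.58 ± 0.09.

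Among 8 tested genes known to act on the transporter genes or proteins, 3 rose and 4 fell (median -0.32). The 3 that rose became 2 when any control library or NETs-treated replicate 2 was left out. They were also 2 with scaling by library size only and without the filter on low counts. The number that fell was between 3 and 5 over the alternatives. Atf4 fell from 512 ± 4.82 to 269 ± 56.1 CPM, and Myc, another activator of Slc7a5 and Slc1a5, from 6.36 ± 0.971 to 3.55 ± 0.559 CPM. These are RNA levels, and the part of either in the changes of the transporters, or of Sesn2 below, was not tested. Sgk3, a kinase that keeps carriers at the surface, had a log2 fold change of -0.92 ± 0.16. The ubiquitin ligase genes Rnf5 and Nedd4l, whose products mark carriers for degradation, rose by log2 fold changes of 0.47 ± 0.11 and 0.27 ± 0.07. Of 35 tested genes that link amino acids to mTORC1, 8 rose and 14 fell (between 10 and 12 when 1 library was left out). Their median of -0.11 was -0.18 without NETs-treated replicate 1 and -0.06 without NETs-treated replicate 2. Sesn2, the leucine sensor that ATF4 induces, had a log2 fold change of -1.83 ± 0.08. Deptor, an mTOR inhibitor, fell from 61.6 ± 2.03 to 18.8 ± 0.957 CPM, and Kptn, a subunit of a complex that restrains mTORC1, from 10.7 ± 1.12 to 3.17 ± 0.709 CPM. Castor2 and the arginine sensor gene Castor1 rose, from 33.1 ± 2.82 to 109 ± 8.94 CPM and from 18.2 ± 1.79 to 31.8 ± 1.21 CPM. All calls are from edgeR with adjustment over all tested genes, and the median of all tested genes was -0.02. Over all tested genes, 25.5% were called higher and 27.2% lower.

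**Figure D4:**
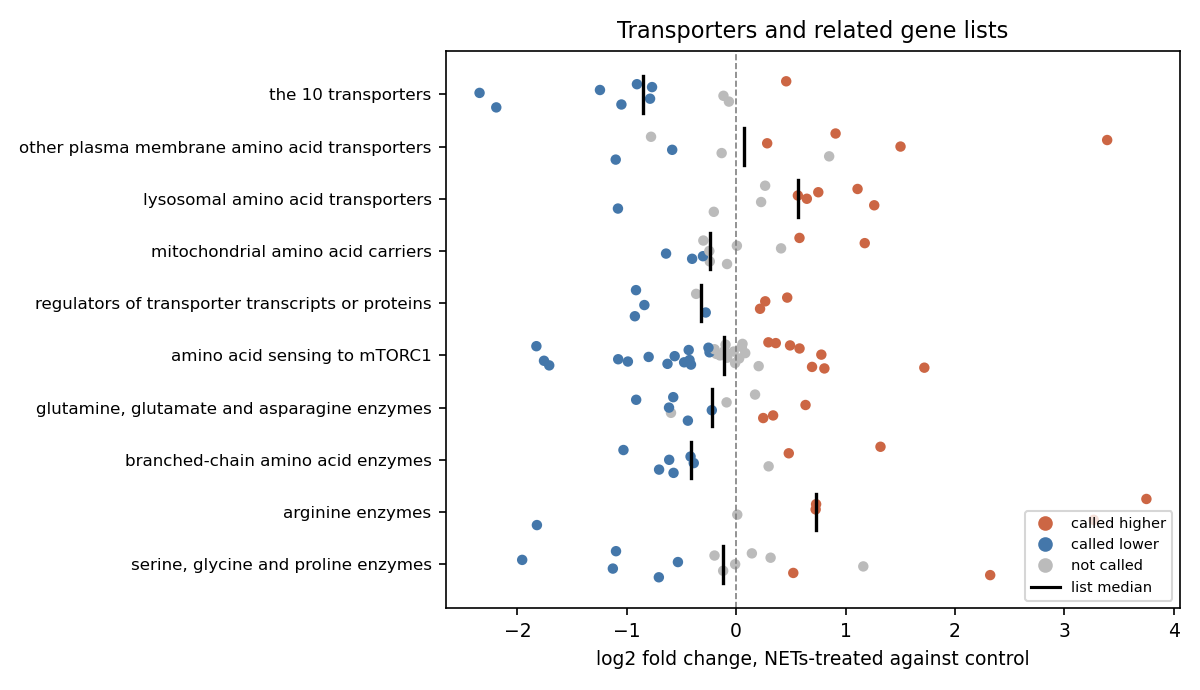
Log2 fold change of each tested gene of the 10 transporters and of 9 related lists; orange and blue points passed the test, grey points did not, and black bars are medians. The median is -0.85 for the transporters and 0.56 for lysosomal carriers; Slc38a4, without a count in NETs-treated libraries, is left out.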

How the data were processed

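Strand-specific RNA-seq libraries were made from total RNA, per the labels' protocols. HISAT2, DESeq2 and the builds rn6 and mm10 are named without roles in the submitters' processing notes; the counting program and its strand setting were not given in the sources used. The authors deposited 1 table with raw read counts per gene and library. It also holds normalised counts, a deposited signal equal to the count over 1 size factor per library. The authors' own comparison stands there too, as log2 fold change, raw p-value and adjusted p-value. Here the counts were tested across all genes in R 4.3.3 with edgeR 4.0.16 (quasi-likelihood test, TMM scaling, filter with minimum count 10 and minimum total 15, Benjamini-Hochberg adjustment, threshold 0.05, two-sided, no covariates). The fit was tested on simulated data drawn with the same spread for every gene and both groups. Spread differed between the groups in the real data, which the simulation does not cover. Depth per library was 39994613 to 44274445 counts, and the biological coefficient of variation was 18.5%; counting limits cover counting error only.

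CPM were scaled by TMM; TPM used exon lengths of GENCODE M21 (GRCm38), matched for 55141 of 55401 gene identifiers. SE and intervals were derived from the F statistic and its prior and residual degrees of freedom. Every member is named; from other lists, up to 4 called genes with the largest change and up to 2 against the majority, and exceptions are marked; a few genes of these lists are not reported here. The members and lists were chosen with earlier results of these data known. Alternatives were DESeq2 1.42.0, limma-voom (limma 3.58.1), other scalings and filters, a GC trend (lowess span 0.3) as an offset, the replicate block, leaving out each library, and the authors' table.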

Additional observations from a re-analysis of the deposited data

How the results depend on the processing

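All 10 transporter genes kept their direction and their side of the threshold under every alternative except Slc3a2, never called, whose log2 fold change was 0.05 without NETs-treated replicate 3 and 0.01 with the GC correction. The counts of 7 genes lower and 1 higher held in all 17 alternatives, the authors' deposited table included. Over all genes, the number called ran from 6716 to 8497 without 1 library and was 8467 with the GC correction, against 8051. With the replicate block, 8105 genes were called. Between libraries of both groups sharing a number, deviations from the group means correlated at 0.12, 0.03 and 0.07. No other pairs were set beside these, so a pairing is neither shown nor excluded. In the order of the 10 genes by level per length, 3 kept their place over all 6 libraries, 3 in control alone and 4 in NETs-treated cells alone when the longest transcript replaced the sum of exons. The difference in log2 ratio ran from -1.01 to -0.54 for Slc7a5 to Slc3a2, from 0.44 to 0.77 for Slc7a6 to Slc3a2 and from -0.36 to -0.16 for Slc1a5 to Slc38a2 when 1 library was left out. Depth did not limit the 10 genes, whose lowest count was 382.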

Other observations

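Genes that make or use the carried amino acids moved in both directions. So did all tested genes, 25.5% being called higher and 27.2% lower. Of 6 tested arginine genes, 4 rose and 1 fell (median log2 fold change 0.73): Odc1, ornithine decarboxylase, stood at 3.75 ± 0.05 on the log2 scale and the inducible nitric oxide synthase gene Nos2 went from 53.0 ± 2.21 to 87.9 ± 13.2 CPM, while Arg1, the cytosolic arginase, fell from 189 ± 3.76 to 53.5 ± 2.27 CPM (SD, n = 3). Arg2 was called higher at a mean of 0.829 CPM in NETs-treated libraries. The 4 arginine genes that rose became 3 when any control library or NETs-treated replicate 1 or 2 was left out, and with limma-voom. They were also 3 by library size only, without the filter on low counts, and with 1 CPM required in at least 3 libraries. Of 13 tested genes of serine, glycine and proline, 2 rose and 5 fell (4 when any library but NETs-treated replicate 3 was left out). The number of these that fell was between 4 and 6 over all alternatives. Their median of -0.12 had no stable sign: it was 0.04 without NETs-treated replicate 1, 0.02 with the GC correction, -0.01 with the replicate block or limma-voom, -0.02 without control replicate 2 and -0.22 without NETs-treated replicate 2, and lay between these values elsewhere. Pycr1, which closes proline synthesis, had a log2 fold change of -1.96 ± 0.16, Phgdh, which opens serine synthesis, of -1.13 ± 0.06, and Shmt2, the mitochondrial step from serine to glycine, of -1.10 ± 0.09. In the other direction, the glycine cleavage genes Amt and Gcsh had 2.32 ± 0.28 and 0.52 ± 0.09.

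Of 9 tested genes of branched-chain amino acid enzymes, 6 fell and 2 rose (median -0.42), against 27.2% lower and 25.5% higher over all tested genes. The list holds regulators of breakdown, Bckdk and Ppm1k, beside its enzymes, so the counts and median give no direction of breakdown. The 6 that fell became 5 when any library was left out, with the GC correction and in the authors' table. They were also 5 with DESeq2 size factors, without the filter on low counts, and with 1 CPM required in at least 3 libraries. Log2 fold changes were -1.03 ± 0.08 for Ivd, -0.70 ± 0.08 for Bcat2, -0.61 ± 0.10 for Bckdk, 1.32 ± 0.18 for Ppm1k and 0.48 ± 0.09 for Dld. Of 11 tested genes of glutamine, glutamate and asparagine, 5 fell and 3 rose (median -0.22). The 3 that rose became 1 when any control library or NETs-treated replicate 2 was left out, with scaling by library size only and without the filter on low counts. Gpt had a log2 fold change of -0.91 ± 0.18, Glul, glutamine synthetase, of -0.61 ± 0.14, Gpt2 of -0.58 ± 0.08 and Got1 of 0.63 ± 0.06.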
